A study of Drosophila melanogaster with 38 samples.

Results

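Larvae lacking OGA kept O-GlcNAc label on chromatin for longer than wild-type larvae, so the same loss was reached at different chase times: after 16 h in OGA-null larvae and after 4 h in wild-type (WT) larvae, about the same part of the label was left. The peaks were compared at this point of equal loss, to ask whether the sites that held on to label were the same in both genotypes. All 1883 O-GlcNAc peaks of the series entered. For each peak the share left was its signal at the later time divided by its own 0 h signal, and the relative share was that share divided by the median share of all peaks in the same genotype.

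The 8 libraries behind these values, of 38 in the series, were 2 biological replicates each of OGA-null larvae after a 16 h chase, OGA-null larvae at 0 h, WT larvae after a 4 h chase and WT larvae at 0 h. Both genotypes are labelled Oregon R in background, and OGA-null larvae carry a knockout of OGA. All had grown for 36 h from egg laying on food with 150 uM Ac4GalNAz, a sugar that carries an azide, and were then moved to food with DMSO. In O-GlcNAc-seq, chromatin with the azide is captured on streptavidin after a click reaction and its DNA is sequenced; here whole larvae were collected in bulk. The OGA-null larvae at 16 h were 52 h past laying and the WT larvae at 4 h were 40 h past it, so genotype, age and time since feeding cannot be told apart in this comparison.

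Many proteins of the nucleus and cytoplasm carry O-GlcNAc, one N-acetylglucosamine unit on a serine or threonine residue. One enzyme, O-GlcNAc transferase, adds it and one hydrolase, OGA, removes it. In Drosophila the transferase is encoded by super sex combs, a Polycomb group gene, and the Polycomb group protein Polyhomeotic is among its chromatin substrates. Cells convert the fed sugar to an azide-bearing form of the transferase's donor, so label marks proteins modified during feeding. Label on chromatin can go through removal of the sugar, through loss of the protein that carries it and through growth, which dilutes it. The assay does not separate these routes, and it does not name the protein at a peak.

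The deposited table gives 1 value per peak, genotype and time that combines both replicates. The spread between replicates is therefore unknown, no test between the genotypes could be made, and every difference below is a description of these columns. Depth per library is unknown. The median signal per base was 11.7 in OGA-null larvae at 16 h and 22.8 at 0 h, and 15.9 in WT larvae at 4 h and 32.9 at 0 h. Positions of peaks are those of dm3, with the first base as 1, and no genes are given, since the gene table at hand is of a later build.

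At equal loss the shares left spread more widely over the peaks in OGA-null than in WT larvae. The median peak kept 51.03% of its own 0 h signal in OGA-null larvae at 16 h and 48.0% in WT larvae at 4 h. In OGA-null larvae the single peaks ran from 17.0% to 114%, with 34.4% and 73.8% at the 5th and 95th percentiles, and 2 peaks were above their 0 h value. In WT larvae they ran from 25.3% to 79.8%, with 37.8% and 59.7% at the same percentiles, and no peak was above its 0 h value. On the log2 scale the SD of the relative share over peaks was 0.33 in OGA-null larvae and 0.20 in WT larvae. The signal summed over all peaks, in which wide peaks weigh most, kept 54.4% in OGA-null larvae and 48.5% in WT larvae, so the match of total loss is closer by the median peak than by the sum.

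Narrow peaks carried the widest spread in both genotypes. Among the 679 peaks of 20 bp, the narrowest in the table, the SD of the log2 relative share was 0.36 in OGA-null and 0.23 in WT larvae. Among the 295 peaks over 100 bp it was 0.25 in OGA-null and 0.14 in WT larvae. Fewer fragments lie behind a narrow peak. The part of the spread that comes from counting was not tested, because no library totals or single replicates were at hand.

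The peaks that kept more label in one genotype tended only weakly to keep more in the other. Across the 1883 peaks the relative shares had a Spearman's rho of 0.23 and a Pearson's r on the log2 scale of 0.23. The points share no column between the genotypes, but neighbouring peaks share fragments and all points share peak width and position, so these are descriptions of the peaks. Of all peaks, 556 were above the median share in both genotypes and 555 below it in both. The remaining 772 were not on the same side in both.

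**Figure D1:**
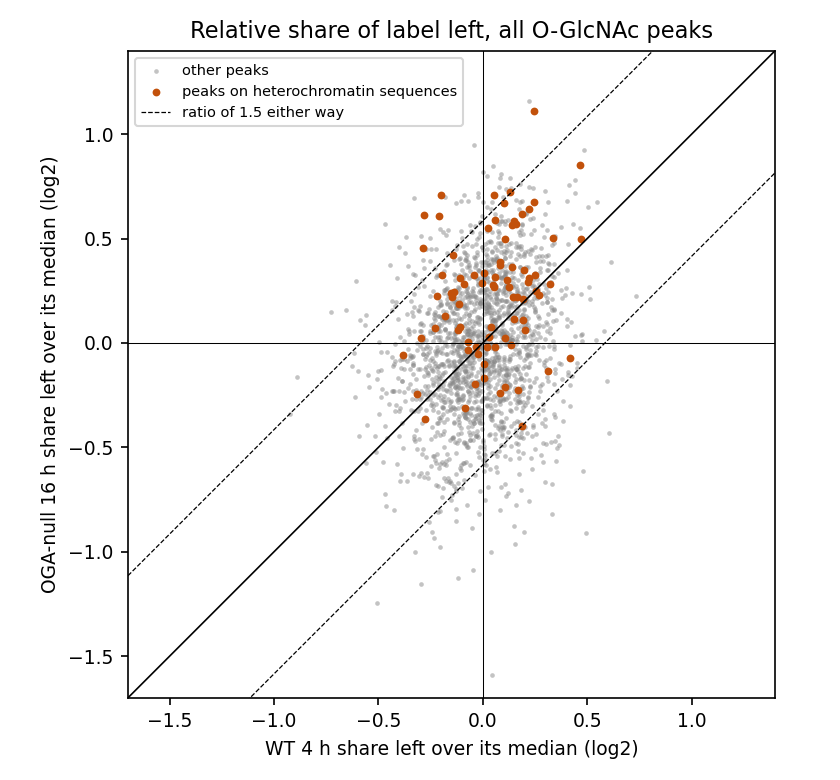
Relative share of label left in OGA-null larvae at 16 h (vertical axis, log2) against WT larvae at 4 h (horizontal axis, log2), with 1 point per peak and peaks on heterochromatin sequences in colour. The cloud is taller than it is wide, with an SD of 0.33 in OGA-null and 0.20 in WT larvae, and it tilts only slightly (Spearman's rho 0.23); dashed lines mark a ratio of 1.5 either way.

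Ranking peaks in one genotype and reading them in the other gave the same weak order. When peaks were put in 5 groups of equal size by their WT share at 4 h, the median OGA-null share at 16 h was 47.2% in the lowest group, 49.04%, 51.3% and 53.99% in the next 3 and 54.7% in the highest. When they were put in 5 groups by their OGA-null share, the median WT share was 46.2% in the lowest group, 46.3%, 47.4% and 48.9% in the next 3 and 50.5% in the highest. The order held at each step in both directions, over a span of 7.48 percentage points in OGA-null and 4.30 in WT larvae.

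**Figure D2:**
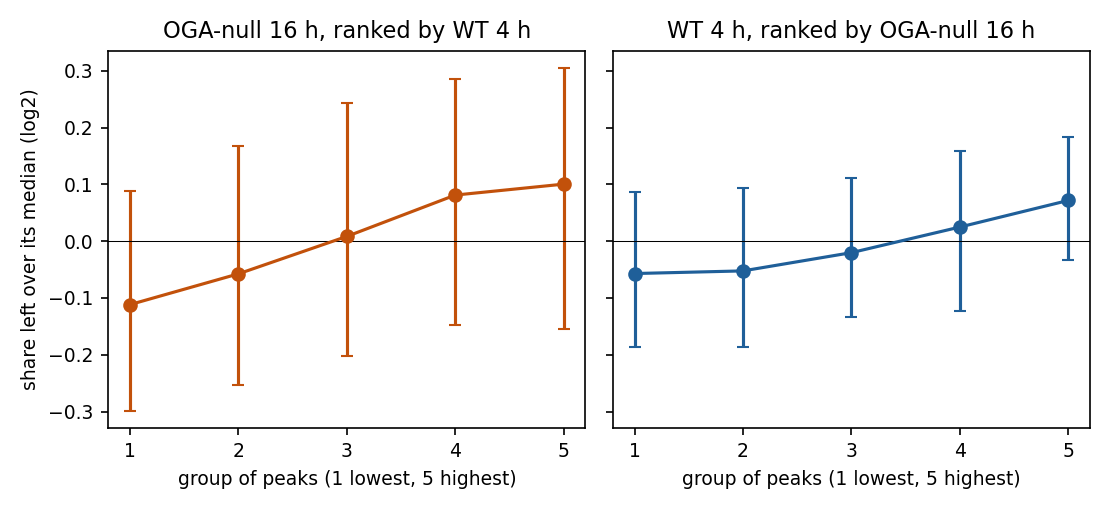
Median relative share left (log2) in OGA-null larvae at 16 h for 5 equal groups of peaks ranked by WT larvae at 4 h (left), and in WT larvae at 4 h for 5 groups ranked by OGA-null larvae at 16 h (right); bars span the middle 50% of peaks. Medians climb from group 1 to group 5 in both panels, by less than the span of the bars.

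The extremes overlapped in part. The highest and lowest of the 5 groups held 377 peaks each. The highest groups of both genotypes shared 108 peaks, 28.6% of each, where ranks with no relation would share 20%. The lowest groups shared 103 peaks, 27.3% of each. Another 37 peaks were in the highest group in OGA-null larvae and the lowest in WT larvae, and 61 were in the lowest group in OGA-null larvae and the highest in WT larvae. Peaks at opposite ends were thus fewer than peaks at the same end, in both directions.

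A relative share that differed at least 1.5-fold between the genotypes was uncommon. In OGA-null larvae at 16 h, 75 of the 1883 peaks (3.98%) had a relative share at least 1.5 times that of WT larvae at 4 h, and 96 peaks (5.10%) had one at least 1.5 times lower, 9.08% in either direction. The ratio of OGA-null to WT relative share ran from 0.323 to 2.05. With a fold of 2 the counts were 2 and 12. The split between higher and lower depends on the scaling: with shares divided by the share of the summed signal in place of the median, 46 peaks were higher and 140 lower. Few of the widest peaks were among them: of the 301 peaks of 100 bp or more, 1 was higher and 3 were lower past 1.5-fold. For peaks over 100 bp these are 0.339% and 1.02%, for peaks over 50 and up to 100 bp 4.16% and 2.41%, for peaks over 20 and up to 50 bp 4.65% and 6.19%, and for peaks of 20 bp 5.01% and 7.95%. Peaks were also put in 4 groups of equal size by WT 0 h signal per base, the divisor of the WT share. The bottom group held 1 higher and 71 lower peaks (0.212% and 15.1%). The top group held 37 higher and 1 lower (7.86% and 0.212%). By OGA-null 0 h signal the bottom group held 19 higher and 32 lower peaks (4.03% and 6.79%). The top group by that signal held 17 higher and 7 lower (3.61% and 1.49%).

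The wide peaks that kept the most label in both genotypes lay on 3R and X. They were picked for this, among peaks of 100 bp or more, as the 4 with the highest lower one of both relative shares. On 3R at 5531050 to 5531178 the signal per base was 20.96 at 16 h and 28.8 at 0 h in OGA-null larvae, against 23.8 at 4 h and 39.1 at 0 h in WT larvae. That peak kept 72.8% in OGA-null and 61.0% in WT larvae. On X at 8468260 to 8468364 the shares were 66.3% in OGA-null and 60.8% in WT larvae. Also on 3R, the peak at 19607488 to 19607631 kept 81.4% in OGA-null and 59.7% in WT larvae. The peak on 3R at 2231512 to 2231672 kept 66.9% in OGA-null and 58.2% in WT larvae. These 4 stood above the median peak in both genotypes by 1.30 to 1.59 times in OGA-null and 1.21 to 1.27 times in WT larvae.

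The wide peaks that kept the least in both, picked as the 4 with the lowest higher one of both relative shares, lay on X, 2R and 3L. On X at 3642910 to 3643045 the signal per base was 9.85 at 16 h and 26.8 at 0 h in OGA-null larvae, against 15.7 at 4 h and 40.9 at 0 h in WT larvae. It kept 36.8% in OGA-null and 38.3% in WT larvae. The peak on 2R at 19813880 to 19813983 kept 40.9% in OGA-null and 37.8% in WT larvae. Both peaks on 3L, at 4218964 to 4219099 and at 173756 to 173874, kept 42.3% and 41.8% in OGA-null larvae and 39.95% and 40.6% in WT larvae. All 4 had lost more than the median peak in each genotype. Their 0 h signals per base were near or above the median of all peaks. For peaks over 100 bp that median was 24.9 in OGA-null and 38.2 in WT larvae, and the peak on X was above it. The peaks on 2R and 3L were below it, at 21.6 to 23.1 in OGA-null and 32.1 to 36.4 in WT larvae. In OGA-null larvae at 12 h the 4 peaks kept 55.7 to 70.9%, where the median peak kept 62.9%.

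The wide peaks with the largest ratio of OGA-null to WT relative share lay on 3R and 3L. The highest was on 3R at 5456400 to 5456562, with a signal per base of 23.2 at 16 h and 27.6 at 0 h in OGA-null larvae, against 21.3 at 4 h and 45.2 at 0 h in WT larvae. It kept 84.1% in OGA-null and 47.2% in WT larvae, a ratio of relative shares of 1.67. In OGA-null larvae the same peak kept 70.3% at 12 h and 42.6% at 20 h, where the median peak kept 62.9% and 30.5%. In WT larvae the same peak kept 33.1% at 8 h and 19.96% at 16 h, where the median peak kept 32.6% and 13.7%. The other 3, on 3R at 22707222 to 22707338 and on 3L at 5774653 to 5774777 and at 21233380 to 21233490, had ratios of 1.45 to 1.48. They kept 64.0 to 80.9% in OGA-null and 41.6 to 51.4% in WT larvae.

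At the other end, 3 of the 4 wide peaks with the smallest ratio lay on X. On X at 5632023 to 5632138 the signal per base was 11.3 at 16 h and 25.3 at 0 h in OGA-null larvae, against 22.8 at 4 h and 35.6 at 0 h in WT larvae. It kept 44.5% in OGA-null and 64.2% in WT larvae, a ratio of 0.652. The peak on X at 1903159 to 1903272 kept 37.9% in OGA-null and 54.5% in WT larvae, and the one on X at 11698214 to 11698420 kept 35.4% in OGA-null and 49.5% in WT larvae. The fourth, on 2R at 5965736 to 5965860, kept 38.6% in OGA-null and 55.3% in WT larvae. In OGA-null larvae at 12 h the 3 on X, in the order given, kept 66.0%, 46.6% and 67.4%. The peak on 2R kept 65.1% at 12 h, and the median peak 62.9%. At 20 h in OGA-null larvae these 4 kept 26.6 to 29.5%, where the median peak kept 30.5%. These peaks were chosen for their values, so they carry no test. X held 37 of the 295 peaks over 100 bp. At the median of those 37 the relative share was 0.994 in OGA-null and 0.968 in WT larvae. The 254 peaks over 100 bp on the autosomal arms were higher in both genotypes, at 1.10 in OGA-null and 1.02 in WT larvae. The ratio was also lower on X at this width, with log2 values centred on 0.0382 for the 37 and 0.118 for the 254. For all 1883 peaks that centre was 0.0190. Past 1.5-fold, 0 of the 37 were higher and 2 lower (5.41%), and those 2 are named above. Of the 254, 1 was higher and 1 lower (0.394%). This difference was not tested.

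By width, label was kept more in wide than in narrow peaks, and more steeply so in OGA-null larvae. Peaks over 100 bp kept 55.9% in OGA-null larvae at 16 h and 48.9% in WT larvae at 4 h. Peaks over 50 and up to 100 bp kept 53.1% in OGA-null and 48.3% in WT larvae. Peaks over 20 and up to 50 bp kept 49.1% in OGA-null and 47.8% in WT larvae, and peaks of 20 bp kept 48.9% in OGA-null and 46.96% in WT larvae. From the narrowest to the widest class the median log2 share differed by 0.19 in OGA-null and 0.06 in WT larvae. This order did not rest on the OGA-null 16 h column: with the geometric mean of the OGA-null 12 h and 20 h columns in its place, which left 43.6% at the median peak, the OGA-null difference was 0.20. With OGA-null larvae at 4 h, when the median peak still had 97.9% of its label, as the baseline, it came to 0.08, or 0.02 more than the WT difference. Without the 471 peaks of lowest signal the difference was 0.15 in OGA-null and 0.09 in WT larvae.

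Resemblance between the genotypes differed between width classes in no steady order. Spearman's rho was 0.17 for peaks of 20 bp, 0.20 for peaks up to 50 bp, 0.30 for peaks up to 100 bp and 0.23 for wider ones.

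By signal, peaks with more label kept a larger share in OGA-null larvae in each ranking used, while in WT larvae the direction depended on the ranking. Ranked by their own 0 h signal per base in 4 groups of equal size, the top group kept 56.9% and the bottom group 48.0% in OGA-null larvae, against 47.4% and 50.5% in WT larvae. A share has its own 0 h signal as divisor, so peaks were also put in 4 groups of equal size by the 0 h signal per base of the other genotype. The top group kept 57.99% and the bottom group 44.6% in OGA-null larvae at 16 h, a log2 difference of 0.38. In WT larvae at 4 h the top group kept 49.6% and the bottom group 45.9%, a log2 difference of 0.11. Ranked by the mean of the OGA-null and WT 8 h columns, which neither share uses, the differences were 0.43 in OGA-null and 0.14 in WT larvae. The 8 h signal is itself label left after a chase, so this ranking is not independent of the shares. Across peaks the 8 h share had a rho of 0.31 with the 16 h share in OGA-null larvae. In WT larvae it had a rho of 0.43 with the 4 h share. In this ranking by 8 h signal 377 of the 471 peaks of the top group were above the median share in OGA-null larvae and 316 in WT larvae, against 114 in OGA-null and 170 in WT larvae of the 471 in the bottom group. With OGA-null larvae at 4 h as the baseline, the OGA-null difference by WT 0 h signal was 0.21.

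Wide peaks also had more signal per base, with a median at 0 h of 24.9 in OGA-null and 38.2 in WT larvae over 100 bp, against 22.1 in OGA-null and 31.3 in WT larvae at 20 bp. The order by signal was seen within each width class. Among peaks of 20 bp, ranked by the 8 h columns, the top group kept 62.5% and the bottom group 44.3% in OGA-null larvae, against 51.8% and 45.4% in WT larvae. Among peaks over 100 bp the top group, 178 peaks, kept 59.5% in OGA-null and 49.8% in WT larvae. The 14 such peaks of the bottom group kept 42.9% in OGA-null and 45.4% in WT larvae. Within groups of equal 8 h signal, width made little difference: in the top group the class medians lay between 59.1% and 62.5% in OGA-null larvae. Ranked instead by the 0 h signal of the other genotype, peaks of 20 bp kept 56.5% in the top and 45.2% in the bottom group in OGA-null larvae. In WT larvae they kept 50.6% in the top and 45.5% in the bottom group.

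**Figure D3:**
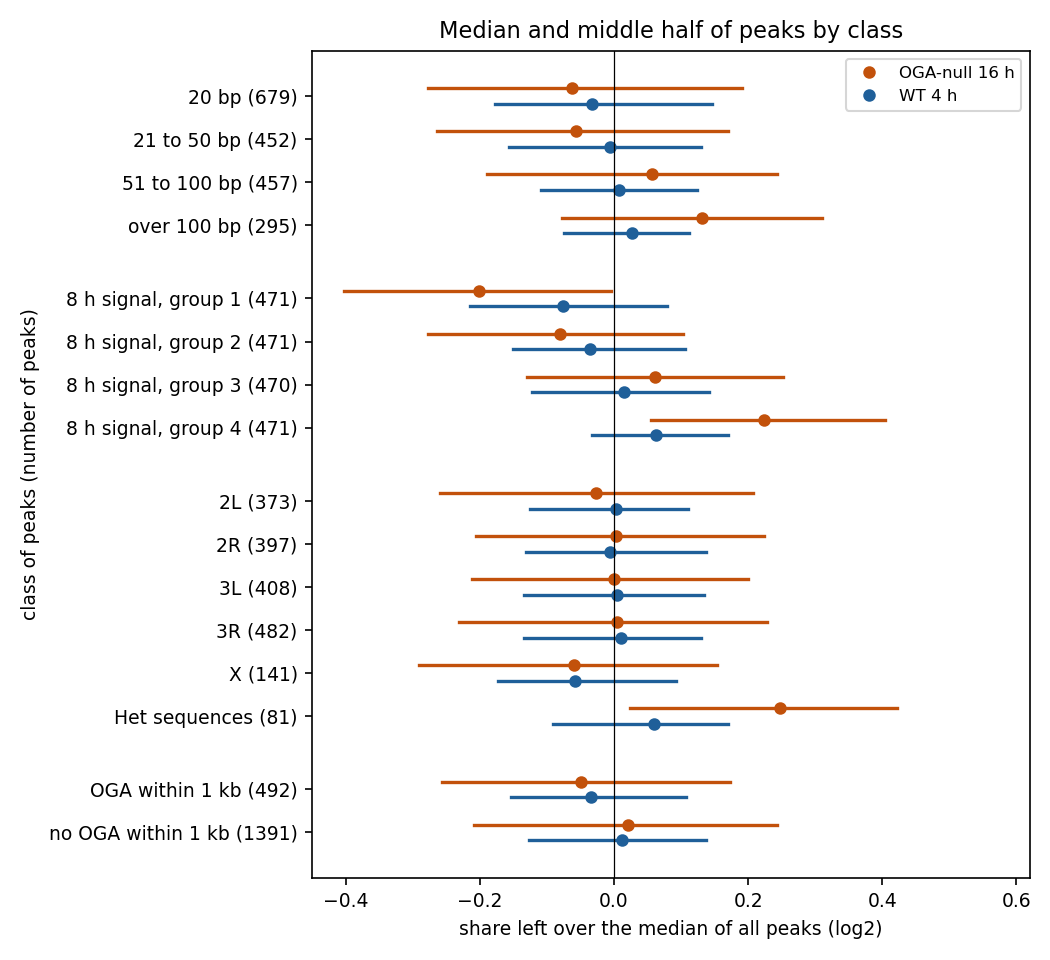
Median relative share left (log2) for classes of peaks by width, by group of 8 h signal per base, by chromosome and by distance to OGA, in OGA-null larvae at 16 h (upper point of each pair) and WT larvae at 4 h (lower point); lines span the middle 50% of peaks and numbers in brackets count peaks. The largest shifts are those of the signal groups and of the heterochromatin (Het) sequences in OGA-null larvae. The 8 h signal is itself label left after a chase.

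By chromosome, the 4 autosomal arms were alike. The median peak of 2L, 2R, 3L and 3R kept 50.1, 51.1, 51.1 and 51.2% in OGA-null larvae at 16 h and 48.1, 47.8, 48.2 and 48.4% in WT larvae at 4 h. X peaks, 141 in number, had a lower share than the 1660 peaks of the autosomal arms, by a similar amount in both genotypes: 48.9% against 50.8% in OGA-null larvae, and 46.1% against 48.1% in WT larvae. That is 0.05 log2 lower in OGA-null and 0.06 log2 lower in WT larvae. On X, 56 of 141 peaks were above the median share in OGA-null and 52 in WT larvae. The OGA-null difference was of the other sign at the times before: 0.00583 at 4 h, 0.0401 at 8 h and 0.00696 at 12 h. By width it was uneven. Among peaks over 50 and up to 100 bp, X peaks kept 52.8% against 52.9% on the autosomal arms in OGA-null larvae, and 44.3% against 48.6% in WT larvae. X peaks were wider than those of the autosomal arms, with a median of 57 bp against 36 bp, while among all peaks the wider ones kept more.

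Peaks on heterochromatin sequences, the parts of the dm3 build named Het that lie near centromeres and are rich in repeats, kept more label in OGA-null larvae at 16 h. The 81 peaks had a median of 60.6% against 50.6% for the 1801 peaks on the major arms, a log2 difference of 0.26. In WT larvae at 4 h they kept 50.1% against 47.9%, a log2 difference of 0.06. Above the median share were 62 of the 81 in OGA-null and 52 in WT larvae. In 7 of the 81 (8.64%, against 3.98% of all peaks) the relative share was at least 1.5 times higher in OGA-null larvae, and in 0 it was 1.5 times lower, where 5.10% of all peaks were.

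The heterochromatin peaks of each sequence with more than 20 peaks were above the median in OGA-null larvae. The 28 peaks on 2RHet kept 62.2% in OGA-null and 48.2% in WT larvae, the 28 on 3RHet kept 61.1% and 50.4%, and the 21 on 3LHet kept 55.8% and 50.1%. Of the 81 peaks, 41 were 20 bp wide. Among peaks of 20 bp alone, heterochromatin peaks kept 60.4% against 48.2% on the arms in OGA-null larvae, and 46.9% against 46.96% in WT larvae. Wider heterochromatin peaks kept more than the arms in both genotypes. Over 20 and up to 50 bp, 25 peaks kept 61.9% against 48.7% in OGA-null and 50.8% against 47.4% in WT larvae. Over 50 and up to 100 bp, 11 peaks kept 62.1% against 52.8% in OGA-null and 52.5% against 48.2% in WT larvae. Over 100 bp, 4 peaks kept 57.3% against 55.9% in OGA-null and 51.6% against 48.9% in WT larvae.

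The heterochromatin difference at equal loss rested on the OGA-null 16 h column, which stood apart from the times beside it. In OGA-null larvae the log2 difference between heterochromatin and arms was 0.26 at 16 h, between times with smaller ones of 0.08 (12 h) and 0.14 (20 h), and it was 0.31 at 24 h. With the mean of the 12 h and 20 h columns it was 0.11, or 0.05 more than in WT larvae at 4 h, against 0.20 more with the 16 h column. At the next pair of near-equal loss, OGA-null at 20 h with 30.5% left and WT at 8 h with 32.6% left, the differences were 0.14 in OGA-null and 0.12 in WT larvae. OGA-null at 24 h with 12.3% left and WT at 16 h with 13.7% left were also near equal loss. There the heterochromatin difference was smaller in OGA-null than in WT larvae, at 0.31 against 0.41. The same held for OGA-null at 36 h (6.79% left) and WT at 20 h (8.11% left), at 0.23 against 0.31. The signal difference moved in the same way, at 0.21, 0.38, 0.29 and 0.41 for OGA-null larvae at 12, 16, 20 and 24 h. In WT larvae the 16 h column stood apart likewise, with a heterochromatin difference of 0.41 and a signal difference of 0.36, against 0.16 and 0.17 at 12 h and 0.31 and 0.21 at 20 h. The part of single libraries in these steps was not tested.

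**Figure D4:**
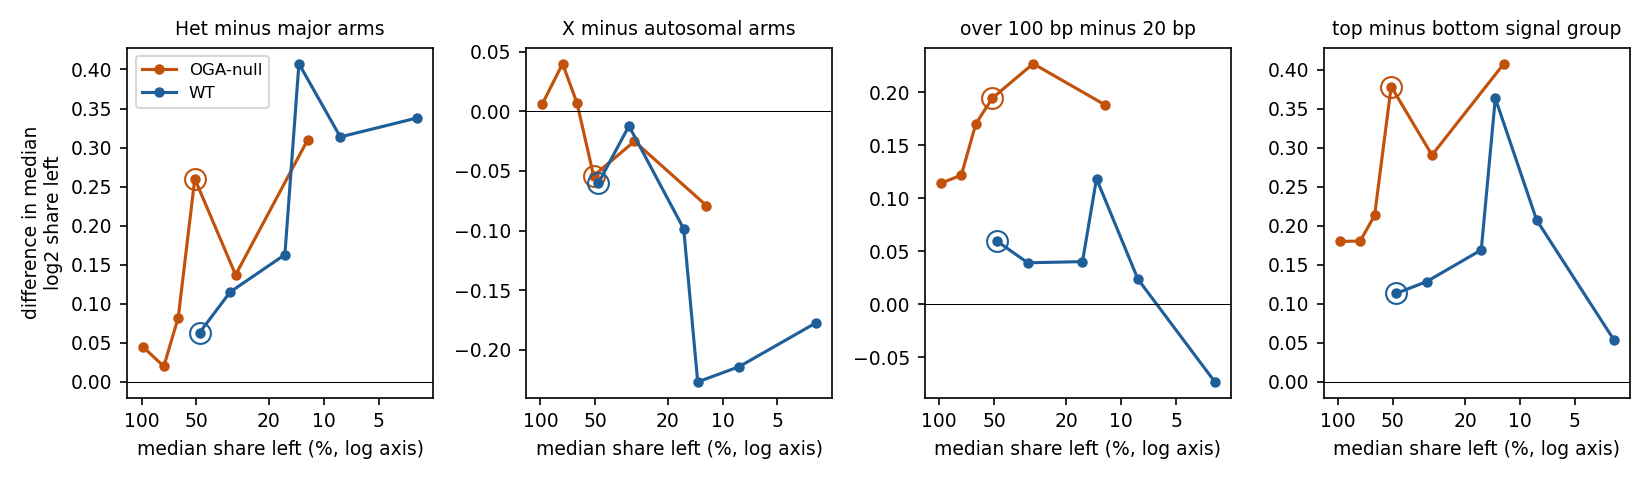
Differences between classes of peaks in the median log2 share left, against the median share of label left (log axis, falling to the right) for OGA-null and WT larvae, from 4 h to 24 h of chase; rings mark OGA-null at 16 h and WT at 4 h. For heterochromatin and signal the OGA-null 16 h point lies above its neighbours, for X both rings nearly coincide, and for width the OGA-null line lies above the WT line at every loss that both reached.

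The shares left showed how close the chosen pair was among all pairs of chase times. Spearman's rho of the relative shares was computed for the 49 pairs of 7 OGA-null and 7 WT times, where all shares of a genotype have the same 0 h divisor. The pair of equal loss, OGA-null at 16 h and WT at 4 h, had a rho of 0.23, and 13 of the other pairs had a higher one. The highest of all, 0.49, was also of a pair near equal loss, OGA-null at 24 h (12.3% left) and WT at 16 h (13.7% left). For OGA-null at 36 h (6.79% left) and WT at 20 h (8.11% left) rho was 0.32, and for OGA-null at 20 h and WT at 8 h 0.22. WT at 4 h had its highest rho with OGA-null at 16 h, ahead of 0.20 to 0.22 for the 3 later times and 0.12 to 0.16 for the 3 earlier ones. OGA-null at 16 h was also the closest OGA-null time for WT at 8 h (rho 0.32) and at 12 h (rho 0.29), both higher than at equal loss, so a closest match with this column was not particular to the pair. OGA-null at 16 h had a rho of 0.49 with WT at 16 h, when WT larvae had 13.7% left, and of 0.30 with WT at 20 h.

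Equal chase time did not give a closer match in general. Pairs at the same time had rho of 0.11 to 0.22 from 4 to 12 h and from 20 to 24 h. The 16 h value of 0.49 stood alone. WT at 16 h was the closest WT time for 6 of the 7 OGA-null times, with a rho of 0.49 for OGA-null at 24 h, of 0.43 at 36 h and of 0.30 at 20 h. All 7 pairs with a negative rho held the WT 36 h column, in which 35 peaks are listed at 0.

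**Figure D5:**
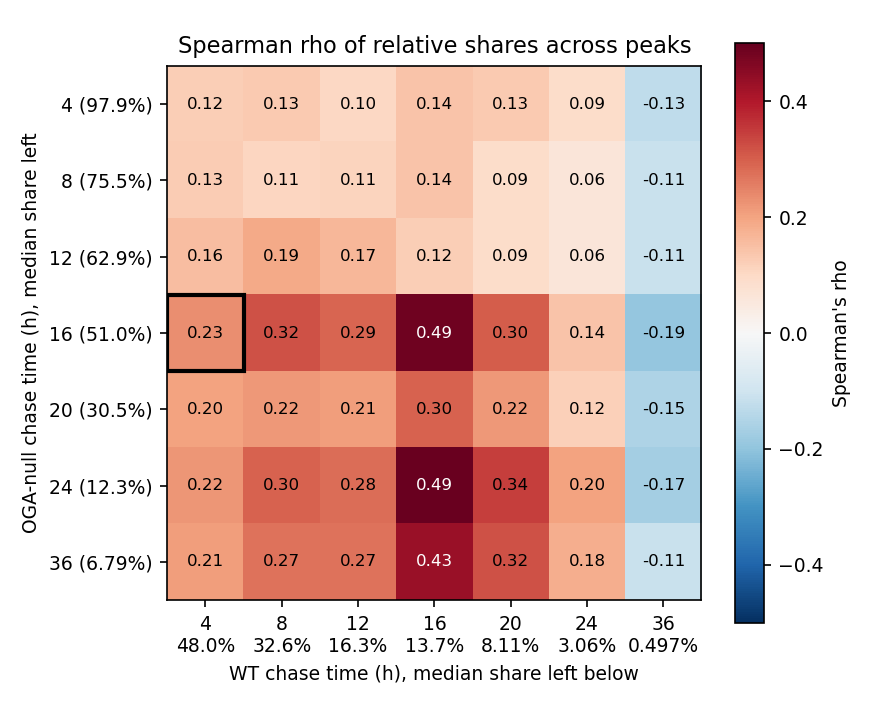
Spearman's rho of the relative shares across 1883 peaks for each OGA-null chase time (rows) and WT chase time (columns), with the median share left beside each time; the frame marks the pair of equal loss. The framed value is 0.23; the column of WT at 16 h holds the highest values, up to 0.49, and the column of WT at 36 h the negative ones.

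The levels themselves, rather than the shares, resembled each other more. Across peaks the signal per base of OGA-null larvae at 16 h and WT larvae at 4 h had a Spearman's rho of 0.62, against 0.55 between OGA-null and WT larvae at 0 h. It was higher still, at 0.645, between OGA-null and WT larvae at 16 h, and 0.587 between OGA-null larvae at 0 h and WT larvae at 4 h. All these correlations are over the same 1883 peaks.

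Peaks with OGA nearby kept slightly less label in both genotypes. The 492 peaks with an interval of the OGA ChIP-seq list within 1 kb kept 49.3% against 51.8% for the other 1391 in OGA-null larvae at 16 h, and 46.9% against 48.4% in WT larvae at 4 h. The log2 differences were -0.07 in OGA-null and -0.05 in WT larvae. For the 81 peaks that overlapped an OGA interval they were -0.01 in OGA-null and 0.03 in WT larvae. These differences were smaller than the SD over peaks in each genotype. A single OGA list is named for the ChIP-seq libraries of both genotypes, and how each library entered it is unknown. The list does not show the genotype of an interval, so any intervals found without the target could not be set apart.

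Adjacent peaks resembled each other most when they were very close, in OGA-null larvae. For 270 pairs of neighbouring peaks less than 500 bp apart, which can share fragments, rho of the relative share was 0.41 in OGA-null and 0.12 in WT larvae. For 192 pairs from 500 bp to 2 kb apart it was 0.08 in OGA-null and -0.03 in WT larvae, and for 400 pairs from 2 to 10 kb apart 0.13 in OGA-null and 0.08 in WT larvae. For the 670 pairs from 10 to 100 kb apart it was 0.10 in OGA-null and -0.02 in WT larvae. The OGA-null values from 2 to 100 kb were thus about as large as the WT value below 500 bp. For the 340 pairs over 100 kb apart rho was 0.01 in OGA-null and 0.05 in WT larvae. The 650 peaks with no other O-GlcNAc peak within 10 kb kept 52.7% in OGA-null and 48.6% in WT larvae, and the 480 with one closer than 500 bp kept 50.4% in OGA-null and 47.5% in WT larvae.

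Over whole regions the shares varied more in OGA-null than in WT larvae. In the 70 windows of 1 Mb with at least 10 peaks, which hold 1603 peaks, the summed signal left ran from 46.8 to 71.1% in OGA-null larvae and from 42.7 to 53.7% in WT larvae, with an SD of the log2 relative share over windows of 0.103 in OGA-null and 0.0535 in WT larvae and a Spearman's rho of 0.34 between the genotypes. The highest window by the mean of both was on 3RHet from 1 to 1000000, where 11 peaks covering 462 bp kept 71.1% in OGA-null and 51.5% in WT larvae. Next came 2R from 9000001 to 10000000, with 64.5% in OGA-null and 50.2% in WT larvae, and 2L from 16000001 to 17000000, with 64.2% in OGA-null and 50.3% in WT larvae. The lowest was on 3L from 12000001 to 13000000, with 46.8% in OGA-null and 47.9% in WT larvae. The other 2 lowest were 3R from 15000001 to 16000000, with 52.7% in OGA-null and 42.7% in WT larvae, and X from 1000001 to 2000000, with 50.2% in OGA-null and 44.9% in WT larvae. Not all of these were low in both genotypes. The window on 3R had a log2 relative share of 0.047 in OGA-null and -0.168 in WT larvae. For the one on 3L the values were -0.124 in OGA-null and -0.00217 in WT larvae.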

How the data were processed

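O-GlcNAc-seq of Drosophila larvae was taken from a deposited table of 1883 peaks. Per the labels, larvae were fixed, and sonicated chromatin went through a strain-promoted click reaction before capture with streptavidin. Per the file headers, each of its 16 columns of signal combines replicates 1 and 2 of a genotype and time. SAMtools, bedtools 2.17.0, dm3 and sacCer3 are named in the submitters' processing notes. Aligner, peak caller and signal scaling: not given in the sources used here. A factor common to a column cancels in the relative share, whereas factors that differ between its replicates may not. The deposited OGA list gives 3534 intervals with no score.

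Shares and their medians were computed with Python 3.11.15, pandas 2.3.3 and numpy 2.4.6, with no pseudocount and no filter, and tested on simulated data. Called means a ratio of relative shares past 1.5, with no test. Peaks named were, among those of 100 bp or more, the 4 highest and 4 lowest in both genotypes and by ratio, and the 3 highest and 3 lowest windows. The pair of times, the classes and the rules were chosen with earlier results of these data known. Alternatives covered scaling, a pseudocount of 10, filters, merging, baselines and times. Libraries of unfed larvae were not used here, so the background without label is unknown. No sequence is shown, because no genome of the dm3 build was at hand.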

Additional observations from a re-analysis of the deposited data

Results flagged for a closer look

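The share left went with the own 0 h signal per base in opposite directions in the genotypes: Spearman's rho over peaks was 0.265 in OGA-null larvae at 16 h and -0.185 in WT larvae at 4 h. The difference was not tested, and each share has that 0 h signal as its divisor. Ranked by the 0 h signal of the other genotype, rho was 0.40 in OGA-null and 0.20 in WT larvae.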

How the results depend on the processing

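No paired analysis was possible because each column combines both replicates, and for the same reason no replicate could be left out. Class differences below are the OGA-null minus the WT difference in log2 share left, with 0.197 for heterochromatin, 0.00608 for X, 0.135 for width, 0.265 for signal and -0.0236 for OGA as reported. Of 109 recomputed values, 58 kept their sign and stayed within 1.5 times. These 58 include values that could not change. Scaling by summed signal shifts all log2 shares of a genotype by a constant. It leaves rho, the shared highest groups and the class differences as they were. The X difference is likewise fixed when only the major arms are kept. Between 11 and 15 pairs of times had a higher rho than the pair of equal loss. The cause of the changes was not tested, apart from those made by construction (fewer peaks, a mean of 2 columns, another fold).

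With WT at 16 h, matched by time, rho was 0.487, 240 peaks were higher and 175 lower, the highest groups shared 179, and the differences were -0.147 for heterochromatin, 0.173 for X, 0.0762 for width, 0.0151 for signal and 0.0611 for OGA. With OGA-null at 12 h, 32 peaks were higher, and the differences were 0.0194 for heterochromatin, 0.0671 for X, 0.0999 for signal and 0.0107 for OGA. With the mean of OGA-null 12 h and 20 h, chosen after seeing the data, 21 peaks were higher and 44 lower, and the differences were 0.0517 for heterochromatin, 0.0388 for X, 0.152 for signal and 0.0190 for OGA. With OGA-null at 20 h and WT at 8 h they were 0.0220 for heterochromatin, -0.0129 for X, 0.162 for signal and 0.0210 for OGA. With OGA-null at 4 h as baseline they were -0.00434 for X, 0.0229 for width, 0.0927 for signal and -0.0115 for OGA.

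Among the 757 peaks of at least 50 bp, 9 were higher and 22 lower, 43 were shared by the highest groups, and the differences were 0.0567 for heterochromatin, 0.0243 for X and -0.0737 for OGA. Without the 471 peaks of lowest signal, 46 were higher and 48 lower, and the differences were -0.0184 for X, 0.0625 for width and 0.103 for signal. Scaling by summed signal gave 46 higher peaks. A fold midway between 1 and 1.5 gave 333 higher and 328 lower, and a fold of 2 gave 2 and 12. The highest of 10 groups shared 32 of 189 peaks. With a pseudocount of 10 the differences were -0.0154 for X and -0.0126 for OGA, with peaks merged -0.0376 for X, and with OGA overlap -0.0402 for OGA. Among peaks of 20 bp, chosen after seeing the data, they were 0.326 for heterochromatin and -0.0370 for X.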
